A study of Mus musculus with 32 samples.

Results

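The Egr and Nr4a genes encode transcription factors of the early response, the set of genes that cells switch on within a short time of a stimulus and without new protein synthesis. The genes described here are Egr1, Egr2, Egr3 and Egr4, Nr4a1, Nr4a2 and Nr4a3, and with them Npas4, a transcription factor of active neurons, and Arc, which encodes a protein of the synapse and is no transcription factor. They were chosen by gene symbol in a table of RNA polymerase II (Pol II) reads per gene, in which all 9 symbols were found among 27179 genes. The tissues were mouse brain, heart, kidney and liver, kept frozen or as formalin-fixed, paraffin-embedded (FFPE) blocks, and Pol II was precipitated through its C-terminal domain. Crosslinking with formaldehyde was done on the frozen cores before shearing, and the FFPE material was cleared of paraffin and extracted with heat, so preservation cannot be told apart from extraction. No treatment or genetic change is named, and the sources used here do not give strain, age, sex or the number of animals. The labels name 2 Pol II libraries per organ and preservation, which differ in date and library kit. The table has 1 column for each of the 8 combinations, called a profile below, and whether a column holds 1 library or both is not stated. The profiles are not known to be separate animals, and no organ has replicate profiles of the same preservation. A p-value therefore rests on how the difference between FFPE and frozen profiles varied between organs. Its variance is drawn in part from all genes.

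Egr proteins bind GC-rich DNA through zinc fingers and respond to growth factors, stretch and synaptic activity, largely through serum response factor. Nr4a proteins are orphan nuclear receptors, induced by cyclic AMP, calcium and stress, that bind DNA as monomers or dimers. Npas4 is induced by calcium entry in neurons, and Arc is a target of the same signals that regulates the uptake of AMPA receptors at synapses. Pol II reads on a gene reflect the polymerase present there, moving or paused, at the time the tissue was preserved. Moving and paused polymerase cannot be told apart in these totals per gene.

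The promoters shown here are those of the 3 members with a RefSeq window that were called higher in brain than in the mean of the other organs, Npas4, Egr4 and Nr4a1, and that of Nr4a2, the member that varied least. Each is the 250 bases before the annotated start, 5′ to 3′ on the strand of the gene, from RefSeq on GRCm38.p6, the build named mm10. Capitals mark the core of the cyclic AMP response element, TGACG on either strand, the site through which CREB acts.
Npas4, chr19:4989972-4990221, minus strand: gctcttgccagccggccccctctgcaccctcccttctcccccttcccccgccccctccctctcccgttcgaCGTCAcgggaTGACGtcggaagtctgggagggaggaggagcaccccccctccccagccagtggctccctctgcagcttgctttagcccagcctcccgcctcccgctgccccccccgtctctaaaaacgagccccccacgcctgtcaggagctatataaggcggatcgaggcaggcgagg
Egr4, chr6:85513590-85513839, minus strand: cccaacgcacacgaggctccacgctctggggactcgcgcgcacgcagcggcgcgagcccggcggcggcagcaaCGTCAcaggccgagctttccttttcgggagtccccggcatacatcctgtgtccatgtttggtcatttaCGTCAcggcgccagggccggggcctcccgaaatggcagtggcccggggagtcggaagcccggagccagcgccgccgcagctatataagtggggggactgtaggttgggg
Nr4a1, chr15:101266596-101266845, plus strand: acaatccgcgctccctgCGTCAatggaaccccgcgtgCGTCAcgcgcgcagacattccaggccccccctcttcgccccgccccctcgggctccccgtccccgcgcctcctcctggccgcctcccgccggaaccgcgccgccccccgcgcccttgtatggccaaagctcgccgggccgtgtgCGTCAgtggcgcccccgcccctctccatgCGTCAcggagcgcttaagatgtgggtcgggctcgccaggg
Nr4a2, chr2:57124004-57124253, minus strand: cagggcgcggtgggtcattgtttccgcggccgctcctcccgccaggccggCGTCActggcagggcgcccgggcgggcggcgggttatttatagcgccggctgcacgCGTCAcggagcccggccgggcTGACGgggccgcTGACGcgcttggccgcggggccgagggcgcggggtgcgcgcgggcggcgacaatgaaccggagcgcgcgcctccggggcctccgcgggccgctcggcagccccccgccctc
RefSeq windows were matched for 6 of the 9 genes; Egr1, Egr3 and Arc had none. TGACG or its complement was found in these 250 bases 2 times in Npas4 and in Egr4, and 4 times in Nr4a1, Nr4a2 and Nr4a3. Of all 32851 windows, 17.8% held it in the same stretch. The full element TGACGTCA (1.55% of windows), which contains the core, the EGR site GCGTGGGCG (0.536%) and AAAGGTCA, the monomer site of Nr4a proteins (1.34%), were not found in the 250 bases of these members on either strand. A CArG box, the site of serum response factor, was found in Egr2 and in 1.47% of all windows. Egr2 has several windows, and the most upstream, chr10:67535249-67535498, holds neither a CArG box nor a core. In Egr2 one CArG box lies shortly before a core of the cyclic AMP element, shown because, of the 6 genes with a window, only this one has both, at chr10:67537791-67537820, plus strand, with both in capitals: ctcagtCCATATATGGgcagcgaCGTCAcg. The windows of Npas4, Nr4a1 and Egr2 lie inside the annotated span of their genes, which have longer forms that start further upstream. Most of the 250 bases of Nr4a3 (chr4:48045055-48045304, plus strand) also lie inside its annotated span, which starts at 48045078. These matches describe the letters only: Nr4a1 and Nr4a2 hold 4 cores each, and their standard deviations over the 8 profiles described next were 1.14 and 0.23 (log2).

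The 8 profiles held between 864816 (FFPE liver) and 2178329 (frozen liver) reads in genes, and a member had between 8 and 470 reads in a profile. Levels are given as deposited, in log2 CPM (read counts scaled to the adjusted total of each library, with 0.5 reads added). Reads did not grow in proportion to the length of a gene (from a median of 64.5 reads per kilobase among the shortest genes to 3.03 among the longest, over the summed profiles). Because the counted part of each gene is not given, levels are compared between organs for 1 gene and not between genes. The organ labels were checked against marker genes: all 12 neuron markers were called higher in brain, 9 of 10 cardiomyocyte markers in heart, 8 of 10 tubule markers in kidney and all 10 hepatocyte markers in liver. As a measure of background, the 95th percentile of 1478 olfactory and vomeronasal receptor genes, silent in these organs, lay between 3.38 and 3.86 in the 8 profiles. Egr1, Egr2, Nr4a1, Nr4a2 and Arc were above it in 8 of 8 profiles, Npas4 in 7 (not in frozen kidney), Nr4a3 in 6, Egr3 in 4 and Egr4 in 3. Folds come from limma fitted to 26758 genes with organ and preservation as terms, and a gene is called at a Benjamini-Hochberg adjusted p below 0.05 over all of them.

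**Figure D1:**
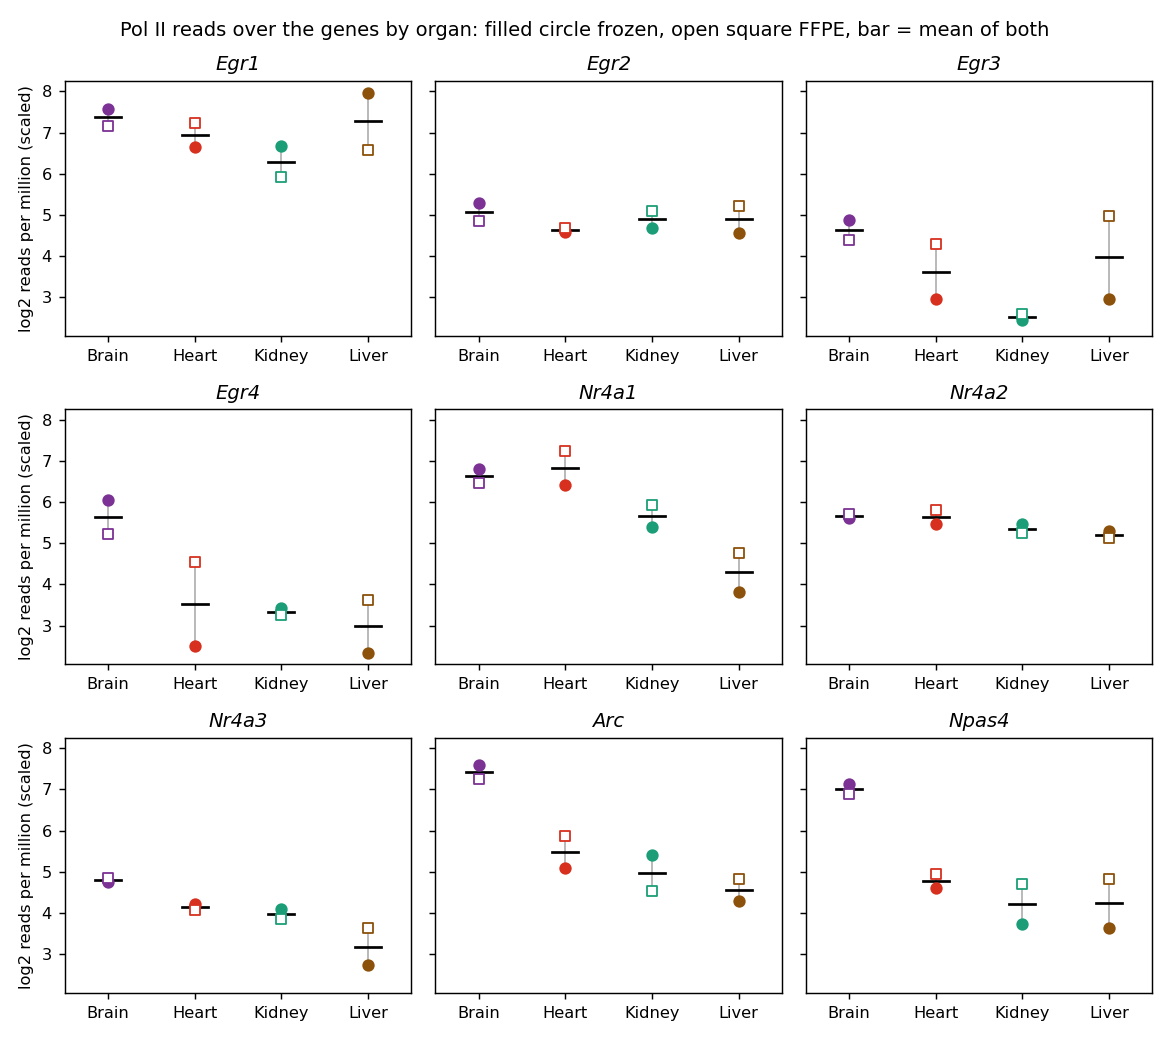
Level of each gene (log2 CPM, vertical axis) by organ, with the frozen profile as a filled circle, the FFPE profile as an open square and their mean as a bar. Npas4, Arc and Egr4 stand highest in brain, Nr4a1 is high in heart and brain and low in liver, and Nr4a2 and Egr2 differ little between organs.

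Npas4 and Arc, the neuronal members, carried most Pol II in brain. Npas4 stood at 7.13 in frozen and 6.90 in FFPE brain, at 4.61 and 4.94 in heart, 3.73 and 4.69 in kidney and 3.65 and 4.83 in liver. Both brain profiles were above every other profile, with 266 and 242 reads against 23 to 36 elsewhere. Npas4 was higher in brain than in the mean of the other organs by a log2 fold of 2.61 ± 0.31 (SE, n = 2 against 6 profiles, limma, adjusted p = 1.33e-05), which is 6.09-fold. In heart, liver and kidney, which followed in that order, the ranges of neighbours overlapped. Arc stood at 7.61 and 7.25 in frozen and FFPE brain, 5.08 and 5.87 in heart, 5.41 and 4.53 in kidney and 4.28 and 4.83 in liver. Again the brain profiles did not overlap the rest, and the fold was 2.43 ± 0.30 (limma, adjusted p = 1.55e-05), or 5.39-fold. Npas4 lies on chromosome 19 from 4984353 to 5003439 and Arc on chromosome 15 from 74669081 to 74672570 (GRCm38.p6), and neither overlaps another annotated gene. With 1 profile left out, the fold of Npas4 ranged from 2.08 to 3.14 and that of Arc from 2.18 to 2.68, and both were called each time.

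Among the Egr genes only Egr4 was called in brain. It stood at 6.05 in frozen and 5.24 in FFPE brain, at 2.51 and 4.54 in heart, 3.42 and 3.26 in kidney and 2.34 and 3.62 in liver. The brain profiles were again above all others (125 and 76 reads against 8 to 20), and the fold was 2.36 ± 0.50 (limma, adjusted p = 0.00378), or 5.13-fold. Outside brain only FFPE heart was above the silent receptors' 95th percentile, so this fold is set against levels that were mostly within the range of silent genes. Without the frozen brain profile it was 1.43 and not called (limma, adjusted p = 0.642); brain is then 1 profile that is assumed to vary like the others. Egr3, which like Egr1 is induced by growth factors and neuronal activity, stood at 4.87 and 4.39 in frozen and FFPE brain, 2.95 and 4.28 in heart, 2.45 and 2.59 in kidney and 2.95 and 4.98 in liver. FFPE liver was its highest profile, and the 2 kidney profiles, with 10 and 8 reads, were its lowest and did not overlap the rest. Both were below the silent receptors' 95th percentile in kidney (3.80 frozen, 3.55 FFPE), as were frozen heart and frozen liver. Its brain fold of 1.26 ± 0.51 was not called (limma, adjusted p = 0.161).

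Egr1, an early target of serum response factor, had no clear order of neighbouring organs. It stood at 7.57 and 7.17 in frozen and FFPE brain, 6.66 and 7.24 in heart, 6.67 and 5.92 in kidney and 7.97 and 6.57 in liver. The gene (chromosome 18, 34861207 to 34864956) had its highest profile in frozen liver and its lowest in FFPE kidney, and all neighbouring organs overlapped. Brain and kidney, at the ends of the order, did not overlap. The kidney fold of -0.90 ± 0.27 was not called (limma, adjusted p = 0.119). Egr2, a regulator of myelination in peripheral nerve and of hindbrain patterning, stayed between 4.57 (frozen liver) and 5.28 (frozen brain), a range of 0.71, and all neighbouring organs overlapped here too. Its annotated span overlaps that of Gm32255, as that of Nr4a2 overlaps LOC105244150, and since the strand of counting is not given, reads of overlapping genes cannot be told apart.

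Of the 3 Nr4a genes only Nr4a1 was called in any comparison. Nr4a1, also called Nur77, stood at 6.41 in frozen and 7.24 in FFPE heart, 6.81 and 6.46 in brain, 5.39 and 5.92 in kidney and 3.82 and 4.77 in liver. Heart and brain overlapped, kidney lay below both, and liver lay below kidney with no overlap. Nr4a1 was called lower in liver (-2.08 ± 0.27, limma, adjusted p = 1.91e-05, or 0.237 of the mean of the other organs), higher in heart (1.30 ± 0.27, limma, adjusted p = 0.00433) and higher in brain (1.04 ± 0.27, limma, adjusted p = 0.0164). The liver fold was called with any 1 profile left out (-2.38 to -1.77). The heart fold was not called without the frozen heart (1.52, adjusted p = 0.0821) or FFPE heart profile (1.07, adjusted p = 0.245) in limma. The brain fold was not called without the frozen brain (0.48, adjusted p = 0.865) or frozen heart profile (0.96, adjusted p = 0.0682), or when scaled to silent receptor genes (0.87, adjusted p = 0.135), in limma.

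Nr4a3 (NOR-1) stood at 4.76 and 4.85 in frozen and FFPE brain, 4.21 and 4.08 in heart, 4.08 and 3.86 in kidney and 2.73 and 3.62 in liver. Brain was above and liver below every other profile, on 51 and 58 reads in brain and 12 and 11 in liver. The liver profiles were below the silent receptors' 95th percentile there (3.52 frozen, 3.86 FFPE), and the other 6 were above their own. The brain fold of 1.04 ± 0.41 (adjusted p = 0.152) and the liver fold of -1.13 ± 0.41 (adjusted p = 0.105) were not called by limma. Nr4a2 (Nurr1), needed for midbrain dopamine neurons, stood at 5.61 and 5.70 in brain, 5.48 and 5.80 in heart, 5.46 and 5.25 in kidney and 5.29 and 5.12 in liver. Its range over the 8 profiles was 0.68, and its standard deviation was smaller than that of most genes: 4.71% of genes with a mean level of at least 2 varied less, against 93.9% for Nr4a1 and 67.9% for Nr4a3. The corresponding shares were 10.9% for Egr2, 65.4% for Egr1, 92.1% for Egr3, 96.5% for Egr4 and Npas4 and 95.7% for Arc.

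**Figure D2:**
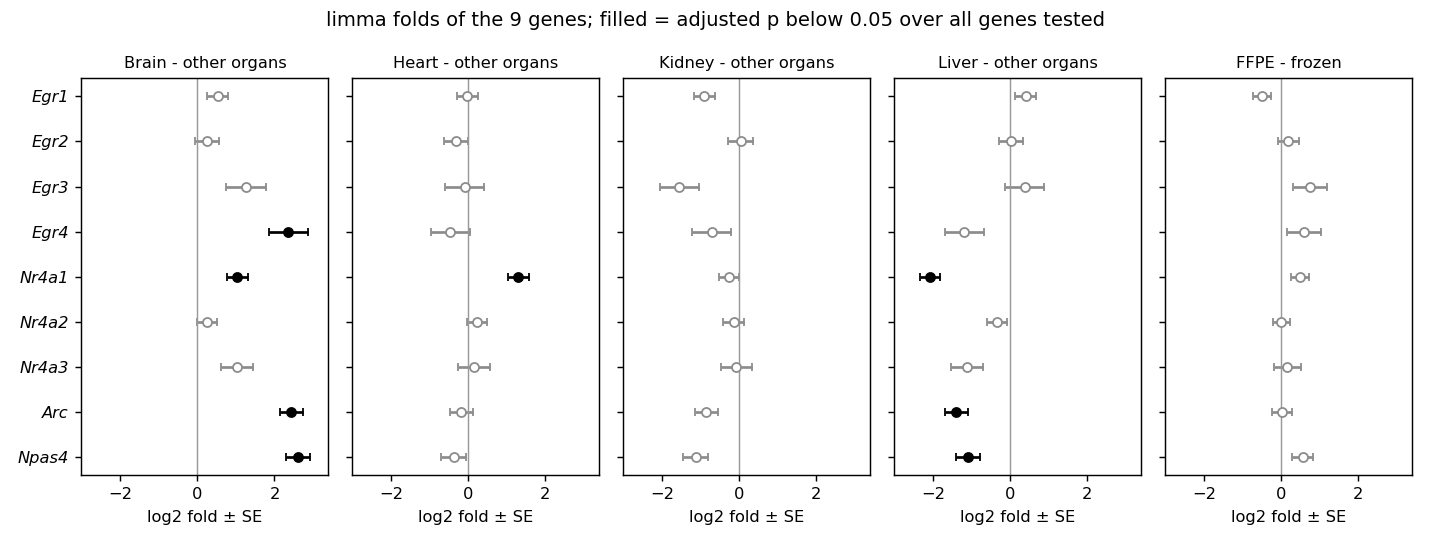
limma log2 folds (horizontal axis, bars are SE) of the 9 genes for each organ against the mean of the other organs (2 against 6 profiles) and for FFPE against frozen (4 against 4). All 9 folds are above 0 in brain, where 4 are called, and none is called in kidney or for FFPE against frozen.

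Counted over the members, 4 of 9 were called higher in brain (Egr4, Nr4a1, Arc and Npas4) where 3.43% of all genes were, and none lower, where 4.02% of all genes were. At an unadjusted p below 0.05, 6 were higher and 0 lower. The share of all genes past that threshold is not given, here or in the comparisons below, so these counts lack a background. With voom weights limma called 5 higher (5.26% of all genes) and 0 lower (4.51%). The median fold of the members was 1.04, and that of all genes 0.01. Egr4, Nr4a3, Arc and Npas4 had both brain profiles above all others, as did 8.4% of all genes; none had both below all others (7.05% of all genes). Without the frozen brain profile Egr4 and Nr4a1 lost their call, and the median fold of the members was 0.59. Without the FFPE liver profile the median was 1.20.

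In heart 1 of 9 members, Nr4a1, was called higher (3.06% of all genes) and 0 lower (2.18%), and the other members lay between -0.46 (Egr4) and 0.24 (Nr4a2). At an unadjusted p below 0.05, 0 were lower, again without the share of all genes. With voom weights limma called 0 lower (1.23% of all genes). No member had both heart profiles above (7.66% of all genes) or below (5.62%) all others. With 1 of the heart profiles left out, whichever it was, no member was called higher. In kidney limma called 0 of 9 in either direction, where 0.919% of all genes were higher and 0.456% lower. At an unadjusted p below 0.05, 4 were lower, Egr1, Egr3, Arc and Npas4, and 0 higher, again without the share of all genes. Voom weights gave 0 calls, where 1.83% of all genes were called higher and 0.661% lower. Both kidney profiles of Egr3 were below all others, as in 3.05% of all genes, and no member had both above (4.92%). The kidney folds ran from -1.55 ± 0.51 for Egr3 to 0.04 ± 0.32 for Egr2. Npas4 (-1.24) was called lower in kidney after quantile normalization, where 0.721% of all genes were. Some fits with 1 profile left out also called Egr1, Egr3, Arc or Npas4 lower. The median fold of the members in kidney ran from -1.02 to -0.25 over those fits. The heart and kidney folds are set against a mean that includes brain. With both brain profiles left out, an alternative added after the data were seen, the members' median in kidney was -0.05, with 4 of 9 above 0. With all profiles it was -0.71, with 1 above 0. In heart the median was 0.37 without brain (8 above 0) and -0.09 with all profiles (3 above 0).

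In liver 3 of 9 members were called lower (3.39% of all genes) and 0 higher (4.52%): Nr4a1, Arc (-1.40 ± 0.30, limma, adjusted p = 0.00373) and Npas4 (-1.10 ± 0.31, limma, adjusted p = 0.0314). At an unadjusted p below 0.05, 5 were lower and 0 higher, again without the share of all genes. Voom weights gave 3 lower (3.27% of all genes) and 0 higher (6.93%). The folds of Arc and Npas4 set liver against a mean that includes brain. With both brain profiles left out, an alternative added after the data were seen, Arc was at -0.67 (limma, adjusted p = 0.435) and Npas4 at -0.26 (limma, adjusted p = 0.865), neither called, while Nr4a1 was still called lower in liver (-1.94, limma, adjusted p = 0.000101) and higher in heart (1.85, limma, adjusted p = 0.000253). Without the frozen liver profile the liver folds were -1.77 for Nr4a1, which kept its call, and -1.05 for Arc, which did not. Without FFPE liver the median fold of the members was -1.52, and Egr1 was at 1.01. Npas4 was also not called in liver without FFPE heart (-1.15), frozen heart (-1.05) or FFPE kidney (-1.01) or when scaled to silent receptors (-1.06), with folds near the -1.10 above and limma adjusted p from 0.0561 to 0.0959. It was -0.92 without frozen brain (limma, adjusted p = 0.197) and -0.68 without frozen liver (limma, adjusted p = 0.429). Nr4a1 and Nr4a3 had both liver profiles below all others, as did 6.16% of all genes, and none had both above (7.29%).

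Cell type markers moved with the same comparisons. The summed level of the 12 neuron markers was 1100 to 1140 CPM in brain and 191 to 358 in the other profiles, with none at 0 reads in brain. In heart the summed endothelial markers were at 1000 to 1240 against 283 to 662, with 6 of 10 called higher, and the cardiomyocyte markers at 8490 to 15400 against 714 to 1070. In brain 3 of 10 endothelial markers were called lower. Their part in the folds of the members was not tested, and in bulk tissue fewer cells of a type and less polymerase per cell cannot be told apart.

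Other genes of the early response were then counted. Of 30 such genes (Fos and Jun family, Klf factors, feedback regulators), 12 were called lower in brain and 0 higher, with a median of -0.72 against 0.01 for all genes. The largest were Zfp36, which destabilizes mRNAs (-3.60 ± 0.29), and the matricellular genes Ccn2 (-2.11 ± 0.27) and Ccn1 (-2.04 ± 0.26). In heart 14 of 30 were called higher and 0 lower (median 0.89), led by Ccn2 (2.29 ± 0.27), Klf2 (2.19 ± 0.28) and Klf4 (2.06 ± 0.25), which respond to blood flow in endothelium. Of this list only Fos was called in kidney, at -1.15 ± 0.25. In liver 5 were called higher (Zfp36, Myc, Ier2, Jun and Socs3) and 3 lower (Klf4, Ccn2 and Maff), with a median of 0.01. The difference between the member list and this list was not tested.

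A further 18 genes were listed as late activity genes, a label that was not tested here. In brain 3 were called higher, Scg2 (2.14 ± 0.46), Vgf (1.45 ± 0.29) and Homer1 (0.87), and 3 lower, Gadd45g (-1.50 ± 0.25), Sik1 (-1.05) and Dusp6 (-1.01). The list median in brain was 0.28. In heart 3 were called higher, Crh, Sik1 and Rgs2, and 0 lower. Kidney had 1 lower, Homer1, and liver 2 higher, Gadd45g and Dusp6, and 1 lower, Per1. Of 20 partners and upstream factors, Crtc1, a CREB coactivator, was called higher in brain (1.06 ± 0.24) and Rxra, a dimer partner of Nr4a1 and Nr4a2, lower (-1.49 ± 0.27). Rxra was called higher in liver (1.76 ± 0.27), the organ in which Nr4a1 was lowest. Elk3 (0.88) and Mef2a (0.86) were called higher in heart and Arnt2, a dimer partner of Npas4, in kidney (1.11 ± 0.26).

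**Figure D3:**
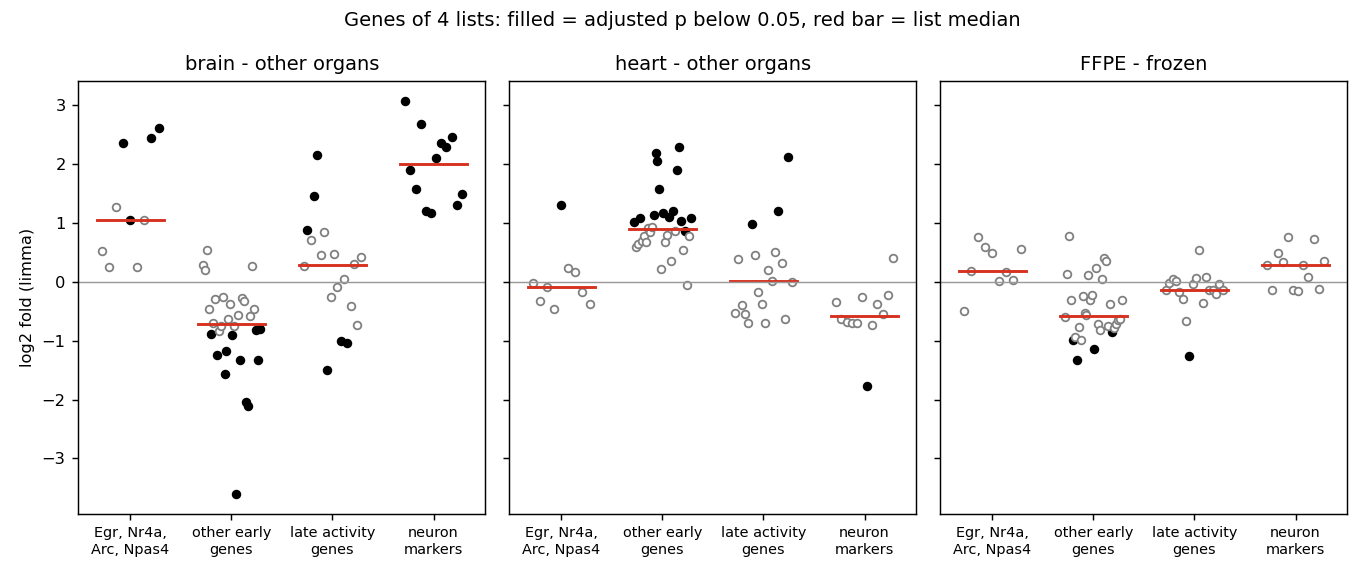
limma log2 folds (vertical axis) of the 9 members, 30 other early genes, 18 late activity genes and 12 neuron markers, in brain and in heart against the mean of the other organs and in FFPE against frozen tissue. Points are genes, filled where called, and red bars are medians: in brain the members' median is 1.04 and that of the other early genes -0.72.

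Across the 4 organs, for FFPE against frozen (4 profiles each), limma called 0 of 9 members in either direction, where 0.153% of all genes were called higher and 0.422% lower in FFPE. At an unadjusted p below 0.05, Nr4a1 was higher (0.49 ± 0.23) and Egr1 lower (-0.49 ± 0.24), again without the share of all genes. With voom weights 0 members were called, where 0.28% of all genes were called higher and 0.875% lower. Folds ran from -0.49 for Egr1 to 0.76 ± 0.44 for Egr3, with a median of 0.19 against -0.01 for all genes. Egr4 was at 0.59 and turned to -0.13 with voom weights. No member moved the same way in all 4 organs, which 8.12% of all genes did upward and 8.45% downward. Of the 30 other early genes 4 were called lower in FFPE, Jund (-1.33 ± 0.24), Dusp1 (-1.15 ± 0.20), Jun (-0.99 ± 0.21) and Rhob (-0.86), and 0 higher, with a median of -0.58. Of the late activity genes Gadd45g was called lower (-1.27 ± 0.21), and no partner or upstream factor was called.

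Within 1 organ there is 1 profile a side and no replicate check, and the 95% exact binomial intervals of the depth-scaled read ratios cover counting error only. In brain 7 of 9 members were lower in FFPE and 2 higher, where 49.6% of all genes were higher. The interval was past 1 for 4 of the lower ones and none of the higher ones, against 11% and 10.4% of all genes. The largest was Egr4 at 0.569 of the frozen level (0.422 to 0.762, 76 against 125 reads). In heart 8 of 9 were higher in FFPE (50.5% of all genes), 5 with the interval past 1 (10.6%) and none lower past it (11.5%). Egr4 had a ratio of 4.21 (1.74 to 11.2) on 18 and 8 reads, and Nr4a1 of 1.78 (1.38 to 2.31) on 120 and 126 reads.

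In kidney Nr4a1 (1.44, 1.05 to 1.98) and Npas4 (1.96, 1.14 to 3.4) had intervals above 1 (11.3% of all genes). Egr1 (0.595, 0.456 to 0.772) and Arc (0.537, 0.345 to 0.818) had them below (11.4%). In liver Egr1 had 88 reads in FFPE and 470 in frozen tissue, a ratio of 0.377 (0.297 to 0.475), and was the only member with an interval below 1 (18.1% of all genes). Egr3 (4.17, 2.14 to 8.55), Nr4a1 (1.94, 1.07 to 3.49) and Npas4 (2.28, 1.25 to 4.18) lay above 1 in liver (12.8%). Nr4a2 and Egr2 had no interval past 1 in any organ. FFPE heart and FFPE liver were the shallowest profiles. The share of mitochondrial reads was 25.6% in FFPE and 12% in frozen heart, and 19.2% in FFPE and 7.77% in frozen kidney. The median level of the silent receptors was 2.14 in FFPE and 1.59 in frozen heart, and 2.27 and 1.79 in liver. It was 2.23 and 2.16 in brain, and 1.96 and 2.31 in kidney. Summed hepatocyte markers stood at 2840 CPM in FFPE and 13400 in frozen liver, and cardiomyocyte markers at 8490 and 15400 in heart. The part of these differences in the ratios was not tested. Tested as differences between organs in the FFPE effect, 1 organ against 3, no member was called (smallest adjusted p = 0.648 in limma), 0 members had an unadjusted p below 0.05, and 0% of all genes were called for any organ.

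**Figure D4:**
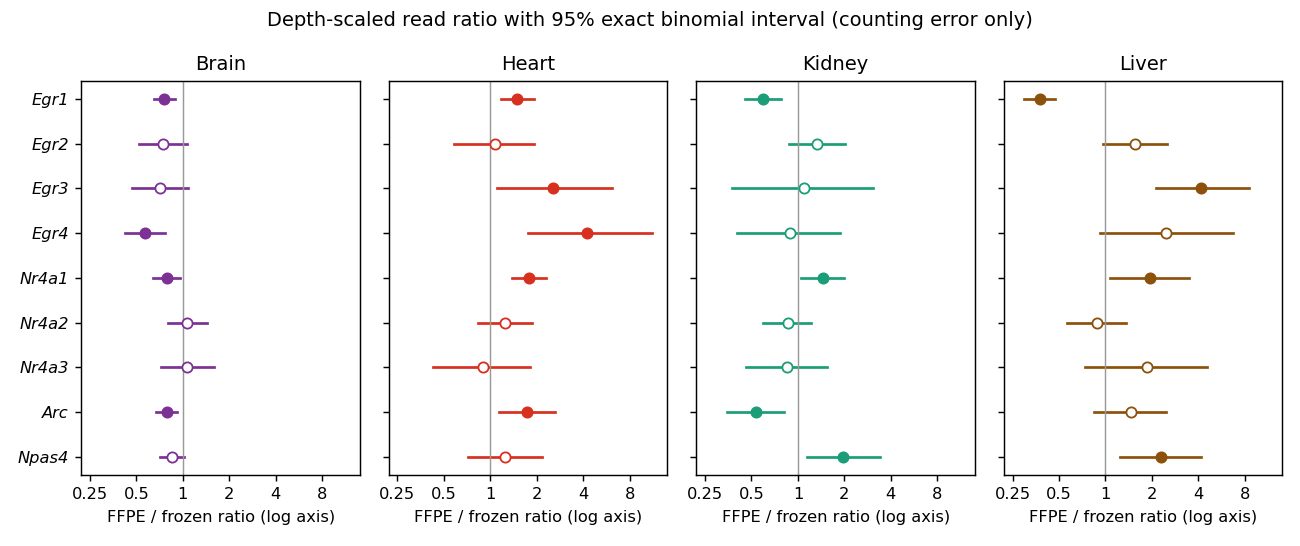
Ratio of FFPE to frozen level (horizontal log axis, depth-scaled reads) of each gene in each organ, with 95% exact binomial intervals; filled points have intervals that do not include 1. In heart 8 of 9 points lie above 1, in brain 7 of 9 below, and Egr1 in liver is at 0.377. Of all genes 50.5% lie above 1 in heart and 49.6% in brain.

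For each member the 3 genes with the most similar levels were listed by Pearson's r over the 8 profiles, among 22314 genes with a mean level of at least 2. With so many candidates and 8 shared profiles this is a description. Npas4 was most like the tubulin gene Tubb4a (r = 0.987), Gnao1 (0.987), a G protein subunit, and Camk2b (0.983), a kinase of the synapse. Arc was most like the cation channel gene Trpm3 (0.993), Fgf12 (0.983) and the vesicle fusion regulator Cplx2 (0.981). Egr4 stood nearest to Gm3764 (0.980), Tyro3 (0.973) and Plxna3 (0.973), and Nr4a1 to Ppfia3 (0.978), Dab2ip (0.977) and Hrc (0.969), which encodes a calcium-binding protein of the cardiac sarcoplasmic reticulum. Nr4a3 was nearest to Actr3b (0.990), Trim62 (0.989) and Elmod1 (0.988) and Egr3 to Ankdd1b (0.985), Gm15413 (0.983) and Exoc4 (0.980). Egr1 was nearest to Tpst1 (0.964), Ergic1 (0.961) and Spryd7 (0.953). For the members of narrow range they were Olfr263 (0.968), 1700029B22Rik (0.967) and Entpd7 (0.945) for Egr2, and G6pc3 (0.967), Kcnj3 (0.965) and Zfp974 (0.961) for Nr4a2.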

How the data were processed

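That the table holds Pol II libraries is taken from its title, and input libraries were not analysed here. The submitters' processing notes name Bowtie2, featureCounts, limma and mm10, without versions. The authors deposited log2 values, which match the scale of limma's voom function with 0.5 reads added per gene. Taking the lowest value of each column as 0 reads, 100% of values came back as whole reads (relative tolerance 1e-06). The added 0.5 reads weigh more in shallow profiles, which moves the log2 values of low genes.

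The filter, a log2 value of 0 or more in 2 or more profiles, kept 26758 genes and 9 of 9 members. limma 3.58.1 (R 4.3.3, empirical Bayes with trend, Benjamini-Hochberg adjustment) was fitted with 3 residual and 19.4 prior degrees of freedom. It was tried on simulated data with changes placed in brain or in FFPE only, and the outcome is not given here. Folds in heart, kidney and liver were not covered by that trial. Members and gene lists were chosen with earlier results of these data known. Folds are printed with errors for members past the threshold and for some others beside their values; list genes named are up to 3 of largest fold per list and comparison, and, chosen after their values were seen, the rest of counts of 5 or fewer. The lists were other early genes, late activity genes, partners and upstream factors, heat shock and housekeeping genes, and markers of 10 cell types, of which the oligodendrocyte list is not reported here. Entrez numbers of 93.0% of genes matched RefSeq. The 7 alternatives other than leaving out profiles were quantile normalization, scaling to 1478 silent olfactory and vomeronasal receptor genes, totals without mitochondrial genes and scaling factors, voom weights, added reads in proportion to depth, no filter, and a mean level of at least 2.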

Additional observations from a re-analysis of the deposited data

How the results depend on the processing

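Under the 7 alternatives other than leaving out profiles, each of the 8 called folds of the members kept its direction, and 2 lost their call: Nr4a1 in brain (0.87) and Npas4 in liver (-1.06) when scaled to silent receptors. That scaling moved the median of all genes to -0.17 in brain, 0.17 in heart and -0.13 for FFPE against frozen, and with mitochondrial genes and scaling factors left out the median was -0.14 in liver and 0.11 for FFPE; signs of uncalled members near 0 turned under some settings, as did Egr4 for FFPE against frozen (-0.13 with voom weights). Members called lower in kidney numbered 1 with quantile normalization (0.721% of all genes) and 0 under the other alternatives (0.288% to 0.661%). With both brain profiles left out, added after seeing the data, 1 member was called lower in liver (2.19% of all genes). With 1 profile left out, members called higher ranged from 2 to 6 in brain, 0 to 1 in heart, 0 to 0 in kidney and 0 to 1 in liver, and members called lower from 0 to 0 in brain and heart, 0 to 3 in kidney and 1 to 4 in liver. For FFPE against frozen 0 members were called higher or lower under each setting run. With all profiles 0.153% of all genes were called higher and 0.422% lower. Without 1 profile the other of that organ no longer bears on the comparison. The cause of these changes was not tested, apart from an organ being left with 1 profile. The planned count test (edgeR) was not run, although whole reads came back from the log2 values. No paired analysis was possible because the columns carry no replicate number of the libraries; FFPE against frozen was fitted with organ as a term, which sets the profiles of an organ against each other. Egr3, Egr4 and Nr4a3, with 8 to 58 reads in most profiles, are the members whose levels are least precise.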

Other observations

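Heat shock genes, which encode protein chaperones, were described here as a further stress-induced list. Of 10, 9 were called lower in FFPE than in frozen tissue and 0 higher (median -1.66), led by Hspa1b (-2.13 ± 0.21), Hspe1 (-1.93 ± 0.23) and Hspa8 (-1.85 ± 0.29). In brain 5 of 10 were called lower, with Bag3 at -2.26 ± 0.23, and in heart 6 of 10 higher, with Hspb1 at 3.47 ± 0.35. Of 12 housekeeping genes limma called 0 for FFPE against frozen (median -0.51), and B2m and Actb lower in brain (-1.59 ± 0.33 and -0.85 ± 0.26). B2m was called higher in liver (1.21 ± 0.33).

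Of 7 astrocyte genes Slc1a2 was called higher in brain (1.11 ± 0.22) and Aldh1l1 lower (-1.11 ± 0.27). Aldh1l1 was called higher in liver (2.07 ± 0.27). limma called 0 of 10 immune markers in any organ comparison. Of 10 smooth muscle and fibroblast markers Col3a1 was called higher in heart (1.13 ± 0.25) and Pdgfra lower in liver (-0.81 ± 0.24), and of 6 erythroid markers in the table Alas2 was called lower in heart and higher in liver.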
